A study of Mus musculus with 4 samples.

Results

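Interferon-stimulated genes are the genes that cells switch on when interferon binds its receptors. A list of 40 such genes was matched to the arrays by platform gene symbol, out of 19938 genes measured in all. By probe sets that carry 1 symbol, 33 of the 40 were measured. For Gbp2, Gbp6, Igtp, Irgm2, Ifi47 and Isg15 the platform table gave only probe sets shared with another gene symbol, and no symbol matched Ifi44, so these 7 are not analysed here. Total RNA of mouse livers was measured on 4 arrays of the Affymetrix Mouse Gene 1.0 ST type. KO-labelled pools came from SIRT6Co/Co ;Alb-Cre mice, which carry a conditional Sirt6 allele and a Cre recombinase driven by the albumin promoter, at 2 and at 8 months of age. WT-labelled pools came from WT SIRT6 mice of the same ages, and the sources used here do not say whether these carried the conditional allele or Cre. Each array held RNA combined from 3 pairs of mice, so every group is 1 pool without a replicate, and the sources used here do not give sex, strain or feeding state. The albumin promoter acts in hepatocytes, so Kupffer cells, endothelial cells and leukocytes of a KO-labelled liver are not its target.

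Type I interferons act through the receptor Ifnar1/Ifnar2 and the complex ISGF3, in which Stat2 and Irf9 take part. ISGF3 binds the interferon-stimulated response element (ISRE) and drives the IFIT and OAS families, nucleic acid sensors and other antiviral effectors. Interferon gamma acts through Ifngr1/Ifngr2 and STAT dimers that bind the gamma-activated site (GAS), and through Irf1, and it is the leading inducer of the guanylate-binding proteins (GBPs) and the immunity-related GTPases (IRGs). These GTPases attack the vacuoles of intracellular pathogens. Both routes overlap on many genes, and in liver both hepatocytes and Kupffer cells answer interferon.

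The promoter windows of the members were searched for both elements, the ISRE that ISGF3 binds and the GAS that STAT dimers bind. RefSeq windows of build GRCm38.p6, each 300 bases long with 250 before and 50 after a gene's start, were matched for 30 of the 40 members, that is, for all but Dhx58, Gbp6, Ifi27, Iigp1, Mx2, Oas2, Parp14, Rtp4, Usp18 and Zbp1. The ISRE core was searched as GAAANNGAAA and GAS as TTCNNNGAA, on both strands, where GAS reads the same on both and the elements may overlap. The 5 windows printed here belong to Ddx58 and Rsad2, which rose in the KO-labelled pools, to Ifit1, the IFIT or OAS member with the largest mean difference, and to Irgm1 and Gbp7 of the interferon gamma-led families. They lie at chr4:40239776-40240075 on the minus strand, chr12:26456403-26456702 on the minus strand, chr19:34640639-34640938 on the plus strand, chr11:48871371-48871670 on the minus strand and chr3:142530086-142530385 on the plus strand. Each runs 5′ to 3′ along its gene, and capitals mark the motif matches.
Ddx58: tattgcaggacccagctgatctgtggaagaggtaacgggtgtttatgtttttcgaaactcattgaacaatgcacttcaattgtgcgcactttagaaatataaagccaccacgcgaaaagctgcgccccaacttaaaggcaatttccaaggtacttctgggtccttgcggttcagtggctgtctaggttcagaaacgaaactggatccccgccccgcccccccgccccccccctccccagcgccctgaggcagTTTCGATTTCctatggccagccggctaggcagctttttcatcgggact
Rsad2: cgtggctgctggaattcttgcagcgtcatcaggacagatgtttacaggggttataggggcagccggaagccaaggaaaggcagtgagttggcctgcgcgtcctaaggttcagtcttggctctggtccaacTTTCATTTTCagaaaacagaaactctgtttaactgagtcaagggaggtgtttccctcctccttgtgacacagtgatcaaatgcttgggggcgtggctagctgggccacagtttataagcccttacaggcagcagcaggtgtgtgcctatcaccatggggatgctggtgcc
Ifit1: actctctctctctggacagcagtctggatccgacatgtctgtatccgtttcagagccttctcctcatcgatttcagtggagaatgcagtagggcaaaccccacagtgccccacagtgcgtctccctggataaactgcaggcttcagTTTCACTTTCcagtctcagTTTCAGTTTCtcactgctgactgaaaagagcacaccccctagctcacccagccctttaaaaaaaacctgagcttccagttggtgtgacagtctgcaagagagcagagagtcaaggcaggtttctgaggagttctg
Irgm1: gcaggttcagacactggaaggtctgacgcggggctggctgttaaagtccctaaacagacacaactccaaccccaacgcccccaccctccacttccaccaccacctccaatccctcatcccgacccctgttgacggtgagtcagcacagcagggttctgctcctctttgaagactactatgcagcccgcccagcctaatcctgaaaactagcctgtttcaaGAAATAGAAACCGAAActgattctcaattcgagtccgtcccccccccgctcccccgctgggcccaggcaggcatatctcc
Gbp7: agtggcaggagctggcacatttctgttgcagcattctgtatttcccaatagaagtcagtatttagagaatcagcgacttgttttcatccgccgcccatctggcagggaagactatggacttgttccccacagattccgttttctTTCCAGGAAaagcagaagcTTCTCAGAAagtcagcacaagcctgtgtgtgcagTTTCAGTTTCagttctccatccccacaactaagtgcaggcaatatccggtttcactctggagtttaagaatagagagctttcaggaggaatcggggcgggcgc
Ddx58 held 1 ISRE core just behind its start, Rsad2 held 1, Ifit1 held 2, Irgm1 held 2 that overlap, and Gbp7 held 1 ISRE core and 2 GAS matches. Of the members with a window, 18 of 30 (60%) had an ISRE core, against 1079 of all 27025 genes with a window (3.99%). GAS matched in 10 of 30 members (33.3%), against 2582 of 27025 genes (9.55%). By family, 4 of 7 type I-led and 6 of 7 interferon gamma-led members had an ISRE core, and 2 of 7 and 3 of 7 had a GAS match. With 7 genes on each side and no test, these counts cannot show whether either element sets the families apart. Gbp7, Igtp and Irgm2 had both, as did Oas1a, Bst2 and Ifitm3, and in Bst2 and Ifitm3 the GAS match overlaps an ISRE core. A match is a description of the letters in a window, not a shown binding site.

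**Figure D1:**
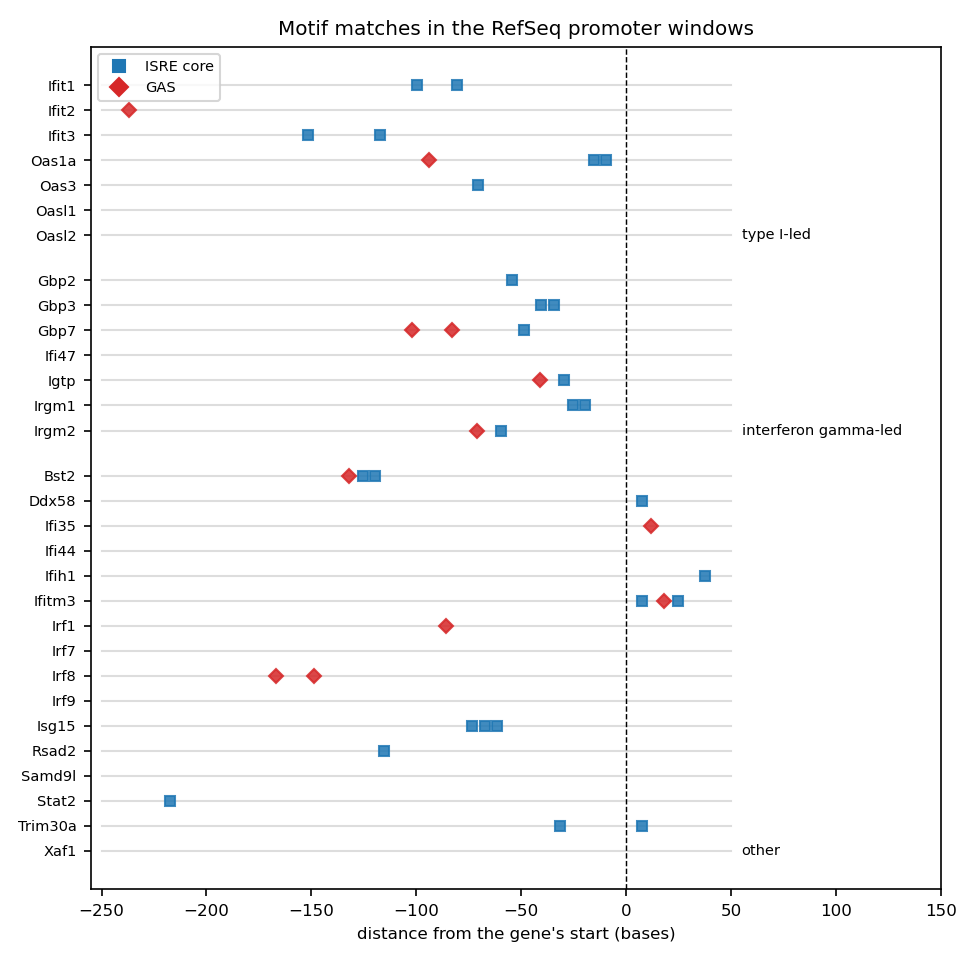
Positions of ISRE core (blue squares) and GAS (red diamonds) matches in the RefSeq windows of 30 members, plotted by distance in bases from the gene's start (dashed line), with 1 row per gene. ISRE cores appear in 18 of the 30 and GAS in 10, both spread over the type I-led, interferon gamma-led and other members.

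The deposited values are log2 expression levels from RMA, with array medians of 3.52 to 3.58. The test took genes with a mean level above the 40th percentile, which was 3.34, which left 11963 genes and 24 of the 33 measured members. Ifit1, Ifit2, Ifit3, Oas1a, Oas3, Gbp3, Zbp1, Samd9l and Xaf1 lay below that level and were fitted only in an alternative with no filter. Sirt6 itself read 4.54 and 4.46 in the KO-labelled pools at 2 and 8 months and 4.55 and 4.5 in the WT-labelled pools. Which exons the probe set reads and which ones recombination removes is not stated in the sources used here, and the labels could not be checked by this value. The genotype test was an additive limma model of genotype and age over the 4 arrays, with Benjamini-Hochberg adjustment over the 11963 genes and a threshold of 0.05. Its error is the departure of each gene from additivity, with 1 residual degree of freedom moderated across genes, so its p-values do not measure the spread between pools or mice. "Rose" and "fell" are used only for genes past this test. On simulated arrays with known changes, the share of false calls of this test was above its threshold in most sets. Genotypes without overlap were common and are no call. Both KO-labelled pools lay above both WT-labelled pools for 29.1% of tested genes and below both for 25.7%. Because whole liver was measured, fewer cells of a type and less RNA per cell cannot be told apart.

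**Figure D2:**
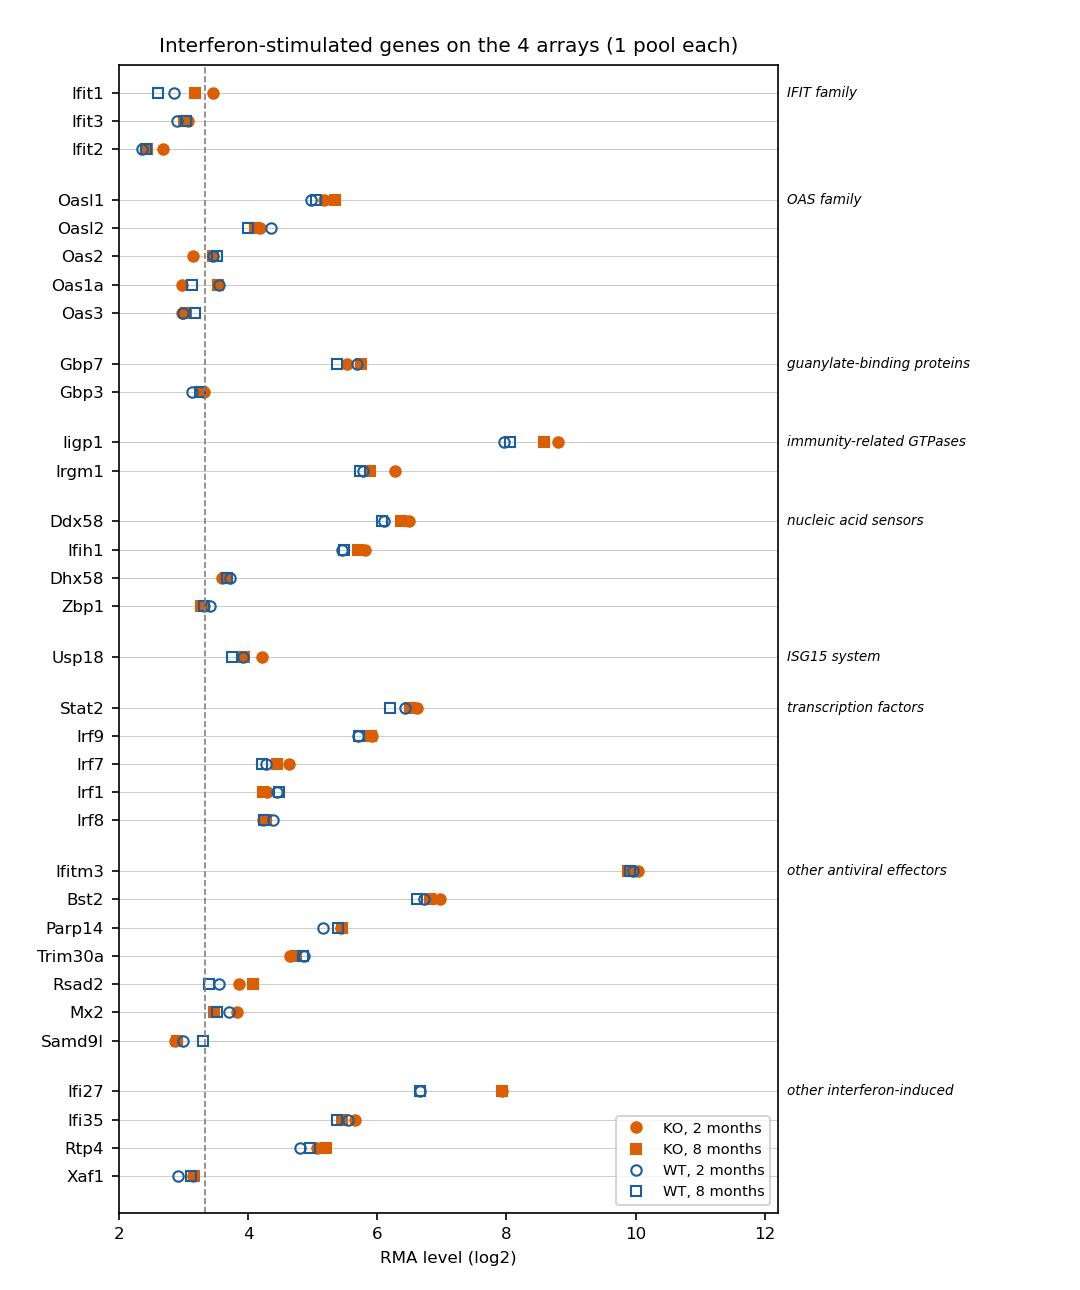
RMA levels (log2) of the 33 measured members on the 4 arrays, grouped by family, with KO-labelled pools filled and WT-labelled pools open, circles for 2 months and squares for 8 months. Both KO-labelled points of Ifi27, at 7.93 and 7.94, stand clear of both WT-labelled points at 6.66, and most other members lie close together, and the dashed line is the low-value filter of 3.34.

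In the KO-labelled livers 4 of the 24 tested interferon-stimulated genes rose and 0 fell, where 6.81% of all tested genes rose and 4.26% fell. They were Ifi27, Iigp1, Rsad2 and Ddx58, and the remaining 20 tested members did not pass. Ifi27, which encodes a small hydrophobic membrane protein induced by type I interferon, moved most. Its level was 7.93 and 7.94 in the KO-labelled pools at 2 and 8 months, against 6.66 and 6.66 in the WT-labelled pools. The pools of each genotype were nearly equal and the genotypes did not overlap. KO minus WT was 1.27 at both ages, a mean fold of 2.42, with an additive limma effect of 1.27 (SE 0.09) and an adjusted p of 9.1e-07. In the RefSeq annotation Ifi27 overlaps its relative Ifi27l2a, so signal of the pair may not be fully separated, and Ifi27l2a read 3.13 and 3.12 in the KO-labelled pools and 2.71 and 2.76 in the WT-labelled pools, below the filter. A brighter relative, Ifi27l2b, had KO minus WT differences of 1.21 at 2 months and 0.94 at 8 months. Whether it shares signal with Ifi27 was not tested.

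Iigp1, also called Irga6, is a GTPase of the IRG family that loads onto pathogen vacuoles. It read 8.80 and 8.59 in the KO-labelled pools at 2 and 8 months and 7.97 and 8.05 in the WT-labelled pools. Both KO-labelled values exceeded both WT-labelled values, with differences of 0.83 and 0.54 and a mean fold of 1.61. The limma effect was 0.68 (SE 0.09, adjusted p 3e-04). Its neighbour in the same GTPase family, Gm4951, rose as well, with 9.36 and 9.21 in the KO-labelled pools against 8.74 and 8.87 in the WT-labelled pools (effect 0.48, adjusted p 0.0028). Both are close relatives, so their values are uncertain as measures of 1 gene each.

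Rsad2 encodes viperin, an enzyme that makes a chain-terminating nucleotide against viral polymerases. Its levels were 3.86 and 4.07 in the KO-labelled pools at 2 and 8 months and 3.56 and 3.39 in the WT-labelled pools. The genotypes did not overlap, and the difference was 0.30 at 2 months and 0.68 at 8 months, with an effect of 0.49 (SE 0.14, adjusted p 0.045). Ddx58 encodes RIG-I, the cytosolic sensor of viral RNA. It read 6.49 and 6.38 in the KO-labelled pools and 6.11 and 6.07 in the WT-labelled pools, again without overlap, with an effect of 0.34 (SE 0.10, adjusted p 0.045). Both calls lie at the threshold. With no low-value filter their adjusted p became 0.13 for Rsad2 and 0.11 for Ddx58, without the intensity trend it became 0.053 and 0.095, and Ddx58 was also at 0.079 after another quantile normalization.

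Calls for genotype were common on these arrays, and the members' count is to be read against that. The additive limma model called 11.1% of all tested genes, 6.81% as higher and 4.26% as lower in KO-labelled livers. Among the 24 tested members 16.7% were called, all higher, and 9 members had an unadjusted p under 0.05, against 25.0% of all tested genes. At 2 months 2 of the 24 members, Ifi27 and Iigp1, were at least 1.5-fold higher in the KO-labelled pool, where 3.98% of tested genes were, and 0 were 1.5-fold lower, where 2.39% were. At 8 months 2 members, Ifi27 and Rsad2, were 1.5-fold higher, against 2.41% of tested genes, and 0 were lower, against 1.93%. These single-age counts compare 1 pool with 1 pool and carry no test.

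Small differences leaned towards the KO-labelled pools. Of the 24 tested members 15 (62.5%) were higher in the KO-labelled pool at both ages, against 34.4% of tested genes, and 4 were lower at both ages, against 31.8%. Both KO-labelled pools exceeded both WT-labelled pools for 14 members, against 29.1% of tested genes, and lay below both for 3 members, Dhx58, Irf1 and Trim30a, against 25.7%. Over all 33 measured members, 19 (57.6%) were higher at both ages, against 27.0% of all 19938 genes. The median difference of the 24 tested members was 0.21 at 2 months and 0.18 at 8 months, against 0.015 and 0.00 over all tested genes. Over the 33 measured members it was 0.18 and 0.10, against -0.04 and 0.00 over all genes. Members share inducers and are not independent replicates, so these shares describe the list. The 13 Kupffer cell and macrophage markers past the filter had median differences of 0.15 and 0.37, and their part in the members' values was not tested.

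**Figure D3:**
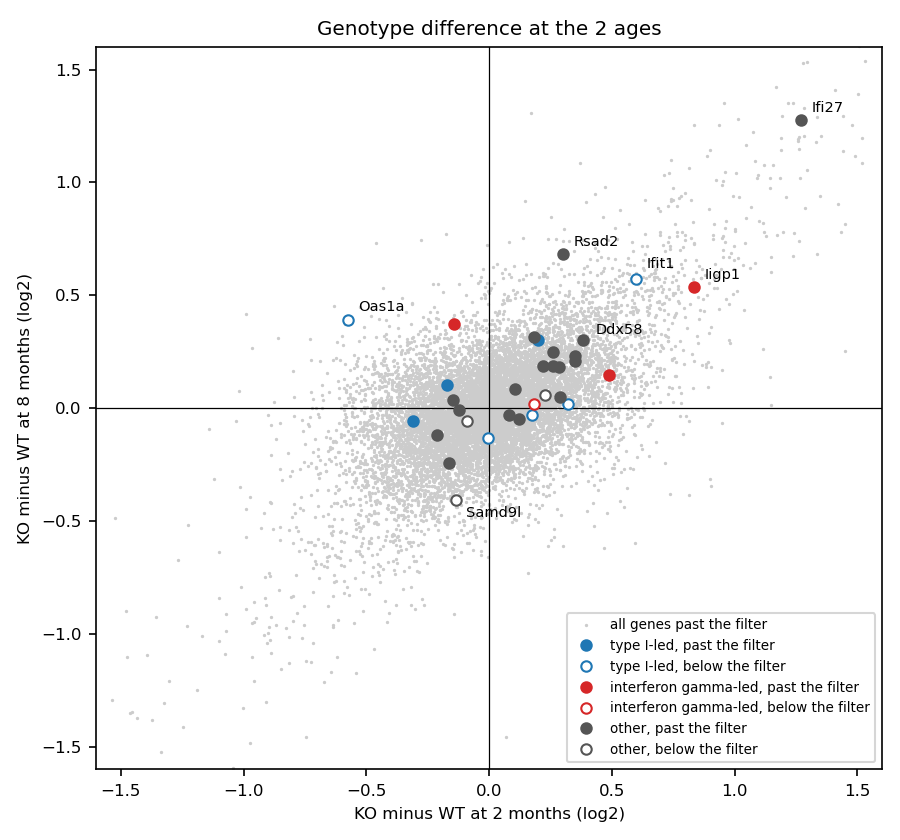
KO minus WT at 2 months (x axis) against KO minus WT at 8 months (y axis), both in log2 units, for the tested genes that lie within the axes (grey) and the 33 measured members, filled where past the low-value filter and open where below it. Ifi27, Iigp1, Rsad2 and Ddx58 lie at the upper right, and Oas1a lies in the upper left, with -0.58 at 2 months and 0.39 at 8 months.

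Of the 8 type I-led members 3 passed the filter, all of the OAS family. Among these 3, 0 were called, where 11.1% of all tested genes were, so few genes could show little. The IFIT proteins seize viral RNA that lacks host cap marks, and no IFIT gene reached the filter. Ifit1 read 3.46 and 3.18 in the KO-labelled pools at 2 and 8 months and 2.86 and 2.61 in the WT-labelled pools. Its difference was 0.60 and 0.57, and the genotypes did not overlap. It lay below the filter, and in the limma fit with no filter it was called (effect 0.58, SE 0.12, adjusted p 0.038), the only one of the 9 members below the filter that was. Ifit2 differed by 0.32 at 2 months and 0.02 at 8 months and Ifit3 by 0.17 and -0.03, and neither was called in that fit, with adjusted p of 0.54 and 0.85.

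The OAS enzymes make the oligoadenylates that activate the nuclease RNase L, and the related Oasl proteins are antiviral relatives. None of the 3 tested OAS members passed, where 11.1% of all tested genes did. Oasl1, which in mice restrains Irf7 translation, read 5.17 and 5.35 in the KO-labelled pools and 4.98 and 5.05 in the WT-labelled pools (effect 0.25, SE 0.12, limma adjusted p 0.22). Its genotypes did not overlap, unlike those of Oasl2, with differences of -0.17 and 0.10, and of Oas2, with -0.31 and -0.06. Oas1a read 2.98 and 3.53 in the KO-labelled pools and 3.56 and 3.14 in the WT-labelled pools, so its differences of -0.58 and 0.39 had opposite signs at the 2 ages. Oas3 differed by -0.01 and -0.13.

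Of the 9 interferon gamma-led members 4 were measured and 3 passed the filter. Of these 3, 1 rose, Iigp1, where 6.81% of all tested genes did. Irgm1, the IRG that keeps the others off host membranes, read 6.27 and 5.89 in the KO-labelled pools at 2 and 8 months and 5.79 and 5.74 in the WT-labelled pools. The KO-labelled pool at 2 months stood apart, and the one at 8 months lay just above both WT-labelled pools. The effect of 0.32 (SE 0.12) did not pass, with a limma adjusted p of 0.10. Gbp7 read 5.54 and 5.76 in the KO-labelled pools and 5.68 and 5.38 in the WT-labelled pools, and the genotypes overlapped (effect 0.12, SE 0.13, adjusted p 0.65). Gbp3 was below the filter, with differences of 0.18 and 0.02.

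Between the families the order depended on which members were taken. Over the 3 tested type I-led members (Oas2, Oasl1, Oasl2) the median of the mean KO minus WT difference was -0.04, and over the 3 tested interferon gamma-led members (Gbp7, Iigp1, Irgm1) it was 0.32, a gap of -0.35. The gap was -0.66 at 2 months and -0.27 at 8 months. With all measured members, 8 type I-led and 4 interferon gamma-led, the medians were 0.02 and 0.22, a gap of -0.20. When the type I-led side was extended by Usp18, the RNA sensors, Irf7, Irf9, Stat2, Mx2 and Rsad2, and the interferon gamma-led side by Irf1 and Irf8, the medians were 0.24 and 0.12, and the sign of the gap turned to 0.13. GBP genes outside the list were not part of these medians. Of those past the filter, Gbp4 and Gbp9 each had a mean difference of 0.07, and Gbp11 had -1.09. The platform table also assigns a probe set, not used here, jointly to Gbp4, Gbp6, Gbp8, Gbp9, Gbp10 and Gbp11. The values of these relatives are thus uncertain as measures of 1 gene each. The gap has no test, since members are not replicates of a condition and each group is 1 pool.

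**Figure D4:**
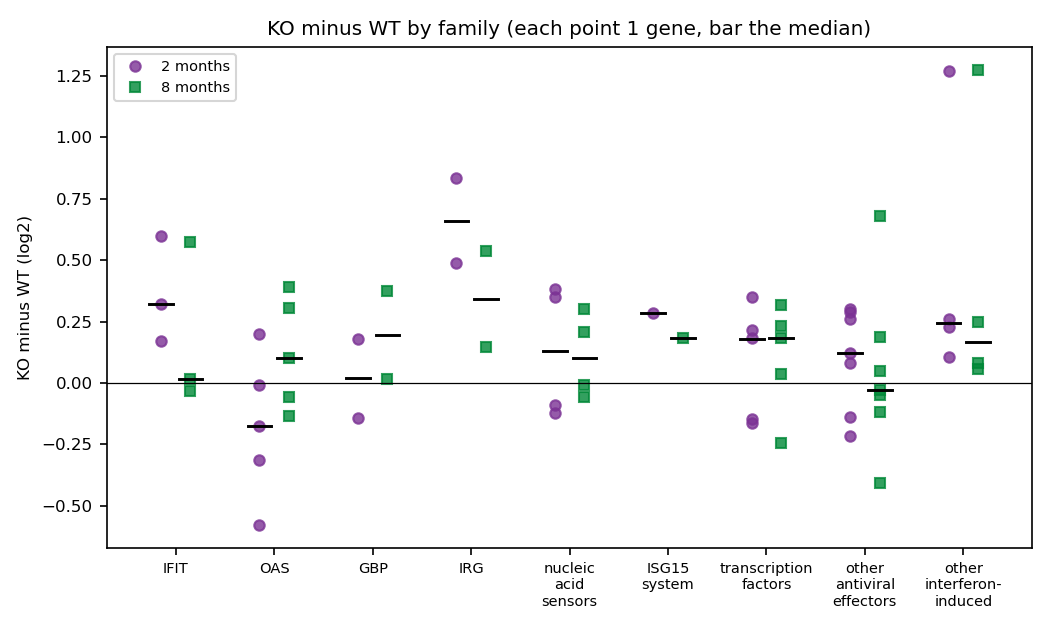
KO minus WT (log2) of each measured member, by family, at 2 months (purple circles) and 8 months (green squares), with a black bar at the family median. The OAS median is -0.17 at 2 months and 0.10 at 8 months, and the IRG median, over 2 genes, is 0.66 and 0.34.

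Among the sensors of foreign nucleic acid, Ddx58 rose and its partner Ifih1, which encodes the long RNA sensor MDA5, had the next largest difference. Ifih1 read 5.81 and 5.70 in the KO-labelled pools at 2 and 8 months and 5.46 and 5.49 in the WT-labelled pools, without overlap (effect 0.28, SE 0.11, limma adjusted p 0.14). Of all tested genes 29.1% likewise had both KO-labelled pools above both WT-labelled pools. Dhx58, which encodes the regulator LGP2 of the same helicase family, differed by -0.12 and -0.01, and Zbp1, a sensor of Z-form nucleic acid, by -0.09 and -0.06. Usp18 removes the ubiquitin-like modifier ISG15 from proteins and dampens type I receptor signalling. It read 4.21 and 3.93 in the KO-labelled pools and 3.93 and 3.75 in the WT-labelled pools, and the KO-labelled pool at 8 months lay only just above the WT-labelled pool at 2 months (adjusted p 0.30).

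None of the 5 transcription factors passed the test, where 11.1% of all tested genes did. Stat2 and Irf9, both subunits of ISGF3, were higher in both KO-labelled pools. Stat2 read 6.61 and 6.51 there and 6.43 and 6.19 in the WT-labelled pools (effect 0.25, SE 0.10, limma adjusted p 0.14), and Irf9 read 5.92 and 5.91 against 5.70 and 5.72 (effect 0.20, adjusted p 0.27). Irf7, which amplifies type I interferon production, had 4.63 and 4.44 in the KO-labelled pools and 4.28 and 4.21 in the WT-labelled pools, again without overlap (effect 0.29, adjusted p 0.18). Irf8, a factor of myeloid cell development, differed by -0.15 and 0.04.

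Irf1, a factor strongly induced by interferon gamma, pointed the other way. The average of its 2 probe sets was 4.29 and 4.24 in the KO-labelled pools and 4.45 and 4.48 in the WT-labelled pools (effect -0.20, SE 0.13, limma adjusted p 0.37). The probe sets disagreed. The brighter one read 5.06 and 5.13 in the KO-labelled pools against 5.65 and 5.51 in the WT-labelled pools, and alone it gave an effect of -0.48 with an adjusted p of 0.02. The dimmer one differed by 0.26 at 2 months and -0.11 at 8 months.

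Of the 6 other antiviral effectors past the filter Rsad2 rose and 0 fell, where 6.81% of all tested genes rose and 4.26% fell. Bst2, or tetherin, which holds budding virions at the cell surface, read 6.98 and 6.81 in the KO-labelled pools and 6.72 and 6.62 in the WT-labelled pools, without overlap (effect 0.22, SE 0.09, limma adjusted p 0.15). Ifitm3, which blocks virus entry at endosomes, read 10.04 and 9.89 in the KO-labelled pools and 9.96 and 9.92 in the WT-labelled pools, a difference of 0.08 and -0.03. Parp14, an ADP-ribosyltransferase, differed by 0.29 and 0.05. The dynamin-like GTPase Mx2 differed by 0.12 and -0.05, Trim30a by -0.21 and -0.12, and Samd9l, below the filter, by -0.14 and -0.41. In the last family Rtp4, a chaperone of receptors, read 5.07 and 5.20 in the KO-labelled pools and 4.81 and 4.96 in the WT-labelled pools, without overlap (effect 0.25, adjusted p 0.21). Ifi35 differed by 0.11 and 0.08 and Xaf1, below the filter, by 0.23 and 0.06.

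No interferon-stimulated gene was called for age. The age term of the additive limma model called 0 of the 24 tested members, and 0 had an unadjusted p under 0.05, where 3.60% of tested genes had one. Over all tested genes it called 1, or 0.00836%, the lysozyme gene Lyz2 (effect -0.80, adjusted p 0.039). In the KO-labelled pools 0 members were 1.5-fold higher and 0 were 1.5-fold lower at 8 than at 2 months, against 0.376% and 0.276% of tested genes. The WT-labelled pools also had 0 in both directions, against 0.209% and 0.443%. Among all 33 measured members the 8 minus 2 months difference ran from -0.39 for Irgm1 to 0.55 for Oas1a in the KO-labelled pools, and from -0.42 for Oas1a to 0.30 for Samd9l in the WT-labelled pools. Ifi27 differed by 0.00 in both genotypes.

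Interferons and their receptors gave no call as deposited, where 11.1% of all tested genes were called. The ligand Ifnl2 and the receptor chain Ifnar1, both lower in the KO-labelled pools, were called under other scalings. Of 7 measured ligand genes 2 passed the filter, the type I gene Ifna2 and the type III gene Ifnl2. Ifnl2 read 5.27 and 5.30 in the KO-labelled pools at 2 and 8 months and 5.55 and 5.77 in the WT-labelled pools, with a limma adjusted p of 0.056. It was called with the 60th percentile filter (0.041), after another quantile normalization (0.031) and under cyclic loess (0.014), each an adjusted p. Ifna2 differed by -0.03 and -0.63. Ifnb1 and Ifng lay below the filter. Ifnb1 read 2.03 and 2.08 in the KO-labelled pools and 2.23 and 2.29 in the WT-labelled pools, and Ifng read 3.00 and 3.03 against 3.22 and 2.81. The type I receptor chain Ifnar1 read 6.45 and 6.25 in the KO-labelled pools and 6.73 and 6.54 in the WT-labelled pools (effect -0.28, adjusted p 0.081), and was called after another quantile normalization (adjusted p 0.034) and under cyclic loess (0.019). Ifnar2 differed by 0.04 and -0.27, Ifngr1 by 0.12 and 0.09, Ifngr2 by 0.04 and 0.11 and Il10rb by 0.07 and 0.26.

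Of 8 signalling genes past the filter 1 rose, where 6.81% of all tested genes did. It was Socs3, an inhibitor of JAK kinases that interleukin-6 family cytokines also induce. Socs3 read 4.81 and 4.77 in the KO-labelled pools and 4.34 and 4.34 in the WT-labelled pools (effect 0.45, SE 0.13, limma adjusted p 0.039), and its call was lost with no filter (adjusted p 0.093). These values average probe sets that differed, since the brightest one alone gave an effect of 0.86. The kinase Jak2 differed by 0.62 and 0.06, and the negative regulators Socs1 and Ptpn2 by -0.18 and -0.06, and by 0.09 and -0.05. Of 11 genes of upstream sensing and induction 0 passed, with Ikbke at a mean difference of 0.20, Adar at 0.19, Ticam1 at -0.29 and Tlr9 at -0.31. Mavs, the mitochondrial adaptor of the RNA sensors, read 7.36 and 7.29 in the KO-labelled pools and 7.61 and 7.53 in the WT-labelled pools (effect -0.24, limma adjusted p 0.096). It was called after another quantile normalization (adjusted p 0.035) and under cyclic loess (0.02).

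Interferon targets outside the list moved in both directions. Of 42 past the filter 5 rose and 2 fell, where 6.81% of all tested genes rose and 4.26% fell. Ifi27l2b, a further relative beside Ifi27, read 6.63 and 6.6 in the KO-labelled pools at 2 and 8 months and 5.42 and 5.66 in the WT-labelled pools (effect 1.07, SE 0.11, limma adjusted p 3.1e-05). Signal shared with Ifi27 was not tested. Ly6e, a surface protein that alters virus entry, read 9.37 and 9.32 against 8.61 and 8.50 (effect 0.79, adjusted p 2.3e-05). Cxcl9, a chemokine induced by interferon gamma, and Lgals3bp were the others besides Gm4951, with effects of 0.67 and 0.39. Cxcl9 read 4.11 and 3.94 in the KO-labelled pools and 3.26 and 3.44 in the WT-labelled pools, the latter near the filter. The related Cxcl10 differed by 0.45 and 0.36 (limma adjusted p 0.071) and was called under 3 of 7 alternatives. Cxcl11 differed by -0.19 and 0.04. Ifi203, higher in the KO-labelled pools, and Trim21, lower, were called only under cyclic loess. The call of Lgals3bp was lost with no filter and without the intensity trend (adjusted p 0.092 in both) and after another quantile normalization (0.059). Gbp11, which RefSeq lists as a transcribed pseudogene of the GBP family, fell, at 6.31 and 6.03 in the KO-labelled pools and 7.27 and 7.25 in the WT-labelled pools (effect -1.09, adjusted p 1.3e-05). Because of its GBP relatives, this value is uncertain as a measure of a single gene. Ube2l6, the enzyme that passes ISG15 to its targets, fell too, at 6.58 and 6.37 against 7.10 and 7.28 (effect -0.71, adjusted p 8.4e-04).

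In antigen processing, a classic interferon gamma programme, 1 of 9 genes rose and 1 fell, where 6.81% of all tested genes rose and 4.26% fell. B2m, the light chain of class I molecules, read 11.49 and 11.38 in the KO-labelled pools and 11.15 and 11.16 in the WT-labelled pools (effect 0.28, limma adjusted p 0.031), a call lost with no filter (adjusted p 0.071) and without the intensity trend (0.16). Tapbp, or tapasin, which loads peptides onto them, read 7.01 and 6.96 against 7.51 and 7.43 (effect -0.49, adjusted p 0.0028). Tap2 differed by -0.66 and -0.10 and Psme1 by 0.23 and 0.12, and neither passed. The list medians were -0.31 at 2 months and -0.10 at 8 months.

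Markers of liver cell types were read from the same arrays. All 9 measured hepatocyte markers lay between 9.09 and 12.6 on the 4 arrays, and 0 were called. Of 13 Kupffer cell and macrophage markers past the filter 2 rose, Cd5l and Vsig4, with effects of 0.72 and 0.49, and Lyz2 fell, with -0.52, and the others were not called. Among all tested genes 6.81% rose and 4.26% fell. Timd4 differed by 0.46 and 0.40 (adjusted p 0.05), Csf1r by 0.31 and 0.37, Cd68 by 0.34 and 0.37 and Clec4f by -0.04 and 0.06, and the list median was 0.15 at 2 months and 0.37 at 8 months. The summed log2 level of 15 measured markers was 76.80 and 74.67 in the KO-labelled pools and 75.23 and 71.26 in the WT-labelled pools. For T and NK cells 10 of 13 markers, for B cells 3 of 4, for dendritic cells 5 of 7 and for neutrophils 7 of 7 lay below the filter, and 0 of the rest were called. The summed log2 levels of the T and NK cell markers, most of them below the filter, were 36.39 and 38.41 in the KO-labelled pools and 38.52 and 37.78 in the WT-labelled pools. A sum of log2 levels is not an amount of a cell type. Of 9 endothelial markers Cdh5 rose and 0 fell, where 6.81% of all tested genes rose and 4.26% fell. The endothelial list median was -0.04 at 2 months and -0.03 at 8 months. The part of any cell type in the differences of the interferon-stimulated genes was not tested.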

How the data were processed

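Total RNA from pooled mouse livers was hybridised to 4 Affymetrix arrays. The authors deposited log2 values of 35556 probe sets, which the submitters' processing notes credit to RMA and to Affymetrix Expression Console 1.0v. RMA corrects background, quantile normalizes arrays and summarises probes, which shrinks differences of dim probe sets. The arrays normalized together and the genome build are not given in the sources used here. Of the probe sets, 21789 had 1 gene symbol, 1621 several and 12146 none. Probe sets with 1 symbol were averaged per gene, giving 19938 genes. Genes past the 40th percentile of mean level were fitted with lmFit and eBayes (intensity trend) of limma 3.58.1 in R 4.3.3, as genotype plus age, with Benjamini-Hochberg adjustment over 11963 genes. The prior had 11.3 degrees of freedom. The members and gene lists were chosen with earlier results of these data known. All measured members are reported. The rule for other pathway genes names, per list, the 2 most positive and 2 most negative mean differences and the receptor chains, and others were named after their values were seen. Promoter windows came from RefSeq. The number of arrays limits the precision.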

Additional observations from a re-analysis of the deposited data

Results flagged for a closer look

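Oas1a, one of the OAS enzymes, had KO minus WT differences of opposite sign at the 2 ages. The difference was 0.39 at 8 months and -0.58 at 2 months, so it was 0.97 higher at 8 months. In the KO-labelled pools the 8-month level was 3.53 and the 2-month level 2.98, and in the WT-labelled pools they were 3.14 and 3.56. Its mean lay below the low-value filter, and a further probe set that the platform table shares between Oas1a and a neighbour was not used. The difference between the ages was not tested, because each group is 1 pool.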

How the results depend on the processing

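Ifi27 and Iigp1 were called for genotype under all 8 alternatives, with effects of 1.22 to 1.3 and 0.65 to 0.71. Ddx58 was called under 5 of 8, with adjusted p of 0.033 to 0.11, and Rsad2 under 5 of 7, with 0.0028 to 0.13. Without the intensity trend 2 members were called, in place of 4. Of 77 other pathway genes tested, 10 were called in the main fit, where 11.1% of all tested genes were, and 17 under cyclic loess. The share of all genes called under the alternatives is not given here. A changed count is therefore not shown to be particular to members or pathway genes. At 2 months the count past 1.5-fold was 2, and 4 past 1.3-fold and 1 past 2-fold. At 8 months it was 2, and 1 both past 2-fold and with the 60th percentile filter, which removes Rsad2. For 8 minus 2 months in the KO-labelled pools 1 member, Irgm1, passed 1.3-fold. The type I-led minus interferon gamma-led gap of -0.35 became -0.067 with the 60th percentile filter, which leaves 1 type I-led member, -0.66 at 2 months alone and 0.13 with extended families. The cause of the other shifts was not tested. Under the scalings tried, the median of the measured members was 0.15 to 0.23 at 2 months and 0.10 to 0.12 at 8 months, and that of the other antiviral effectors at 8 months was between -0.03 and 0.02. No paired analysis was possible because each genotype and age is 1 pool. The probe sets of Irf1 were also taken singly, an alternative chosen after seeing the data, with effects of -0.48 and 0.08. With no filter 3 members were called, Ifi27, Iigp1 and Ifit1. Of the 10 pathway genes called, Socs3 kept its call under 6 of 7 alternatives, B2m under 6 of 8, Lgals3bp under 5 of 8 and the others under all that tested them.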
